A study of Bos taurus with 4 samples.

Results

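Heat shock proteins, chaperones and folding enzymes were taken from the transcriptome of bovine subcutaneous adipose tissue by their names. An entry was a member if the description of its UniGene sequence held 1 of 6 phrases: heat shock, DnaJ, chaperonin, protein disulfide isomerase, FK506 binding protein or peptidylprolyl isomerase. This gave 91 members of 36373 UniGene clusters with a read in any library. The members were divided by the place where their proteins are known to work, with 44 in the cytosol, 16 in the nucleus, 20 in the endoplasmic reticulum (ER), 6 in the mitochondrion and 5 elsewhere. Some well-known chaperones carry none of these phrases and are given apart.

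The tissue came from Chinese Qinchuan cattle, and no animal carried a transgene or received an agent that the labels name. ATFB was the adipose tissue of fetuses of 200 to 250 days, and ATAB, ATAH and ATAS were those of adult bulls, heifers and steers of 18 to 24 months. Steers are castrated males. Each library was made from the pooled tissue of 5 animals, so that each group is 1 library, the spread between animals cannot be seen and no difference has a replicate check. The totals, in M (mega) unique reads, were 15.3 for ATFB, 16.1 for ATAB, 15.6 for ATAH and 15.6 for ATAS. Of the 91 members, 85 had a read in all 4 libraries and 81 had at least 100 reads in total. The adipocyte list (9 genes, among them ADIPOQ and PLIN1) summed to 1066 RPKM in ATFB and to between 8698 and 12100 in the adults, and the skeletal muscle list (6 genes) stayed between 3.48 and 8.17 RPKM in all 4 libraries. The 2 erythroid genes summed to 2390 RPKM in ATFB and to at most 1.54 in the adults. The 4 leukocyte genes summed to 243, 665, 936 and 1726 RPKM in ATFB, ATAB, ATAH and ATAS. Most of this was CD74, at 206, 624, 900 and 1663 RPKM, and PTPRC measured 2.17, 7.91, 9.59 and 16.8. CD53 measured 17.3, 13.0, 11.7 and 20.2 RPKM and CORO1A 17.4, 20.8, 15.0 and 25.6. The 3 endothelial genes summed to 158, 220, 300 and 381 RPKM in the same order. VWF measured 22.3, 95.8, 143 and 183 RPKM, PECAM1 106, 95.9, 116 and 150, and KDR 30.3, 28.0, 41.5 and 48.5. The part of these cell types in the members' levels was not tested. RPKM is the number of reads divided by the length of the sequence and by the library total.

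Chaperones bind unfolded or newly made proteins and keep them from clumping. HSP70 proteins bind and release clients in an ATP cycle that J-domain proteins start, HSP90 proteins finish the folding of kinases and receptors, and the ring-shaped chaperonin TRiC folds actin and tubulin. In the ER, the HSP70 protein HSPA5 works with protein disulfide isomerases, which form disulfide bonds, and with peptidylprolyl isomerases (cyclophilins and FKBPs), which turn the bonds before proline. Collagen has many prolines and its folding draws on several of these enzymes. Heat shock factors (HSFs) are the transcription factors that switch on many chaperone genes.

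Some of the coding sequences end in codons for known short signals. Many cytosolic HSP70 and HSP90 proteins end in the residues EEVD, which co-chaperones bind, and many soluble ER proteins end in KDEL or a like signal, by which they are kept in the ER. The last 30 bases before the stop codon are shown for the members that the results turn on, with the last 4 codons in capitals. They were read from the deposited UniGene sequences.
HSPA1A: gggtctggccccaccattGAGGAGGTGGAT
HSPA2: tccgggggaccgaccatcGAGGAAGTGGAC
HSPA8: tcctctgggcccaccattGAAGAGGTTGAT
HSP90AB1: gaggacgcctctcgcatgGAAGAAGTAGAT
HSPA5: gaggaggaagcagcagacAAAGATGAGTTG
SERPINH1: cccaagggcgacaagatgCGAGACGAGTTG
FKBP7: gaatacaatgtctatcaaCATGATGAACTA
FKBP10: gaagaccaggaccgggtcCATGAGGAACTC
PDIA4: acaaaactgagcagaaccAAGGAAGAACTT
PDIA3: aagaagaagaagaaggcaCAGGAGGATCTC
Of the 41 cytosolic members with a whole reading frame, 6 ended in EEVD and 0 in DEL or EEL. HSPA12B and HSPA14, of the HSP70 family, did not end in EEVD. Of the 20 ER members, 9 ended in DEL or EEL and 0 in EEVD. PDIA3 is not among the 9, since its last 4 codons read QEDL. The 15 nuclear and 6 mitochondrial members with a reading frame had neither ending.

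A J-domain protein touches HSP70 through the residues HPD. The codons for HPD were found in 28 of 29 J-domain members with a reading frame and in 4 of 58 members of other families. The site is shown in capitals for 1 J-domain member of each of 3 compartments and for DNAJC5 and DNAJC10, whose levels are given below.
DNAJB1, cytosol: ctgcgttacCACCCGGACaagaacaag
DNAJC5, cytosol: ttgaaatacCACCCTGACaagaaccct
DNAJC3, ER: ctgcagtggCACCCAGACaacttccag
DNAJC10, ER: ttgaagctaCATCCTGATaaaaacccg
DNAJA3, mitochondrion: aagaaatatCACCCAGACacgaataag
All 5 protein disulfide isomerases held the codons of the active site CGHC, and 0 other members did. In PDIA5, the isomerase called lower in each adult library below, the first of these reads as follows, with its codons in capitals.
PDIA5: gccccatggTGTGGACACTGTaagaaaatg

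The members took 1.71% of the reads of ATFB, 0.847% of ATAB, 0.879% of ATAH and 0.807% of ATAS. In ATFB, 19.5% of the reads on members fell on HSPA1A alone, against 3.48% to 4.72% in the adult libraries. Summed by compartment, the cytosolic members gave 5554 RPKM in ATFB and 2220, 2494 and 2328 in ATAB, ATAH and ATAS. The ER members gave 1560, 1106, 829 and 716 RPKM in the same order. The sum of the mitochondrial members lay between 337 and 396 RPKM in all 4 libraries. ATFB thus held the largest sum in the cytosol and ER, also with TMM factors and DESeq2 size factors. In the mitochondrion the lowest sum was that of ATFB under library totals and that of ATAS under the other 2 scalings. Among the 81 members with at least 100 reads, ATFB had the highest of the 4 values in 49 (60.5%) and the lowest in 22 (27.2%). Over all 18671 clusters with as many reads these shares were 36.6% and 40.4%. ATFB was highest in 26 of 40 cytosolic, 13 of 18 ER and 9 of 15 nuclear members, but in 1 of 6 mitochondrial members. Fewer cells of a type and less RNA per cell cannot be told apart in such bulk libraries.

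For each pair of libraries, the reads of a cluster were set against the library totals in a binomial test, exact and two-sided. A member was called different at a false discovery rate (FDR) of at most 0.001, adjusted over all clusters with a read in either library, and a log2 ratio of at least 1 in size. The test compares the 2 libraries and not the conditions, and the intervals given are 95% intervals for counting error only. In ATAB over ATFB, 27 of 91 members were lower (29.7%) and 4 higher (4.4%), where 13.1% of all clusters tested were lower and 9.51% higher. In ATAH over ATFB, 20 were lower (22.0%) and 6 higher (6.59%), against 9.83% and 13.9% of all clusters. In ATAS over ATFB, 23 were lower (25.3%) and 6 higher (6.59%), against 10.5% and 15.5%. Deeply read genes pass such a test more often, so the same shares were taken over those that reached 100 reads in either library. There 37.0%, 27.4% and 31.1% of the members were lower in ATAB, ATAH and ATAS, against 21.0%, 15.9% and 16% of all such clusters. Of these members 4.11%, 8.22% and 8.11% were higher, against 14.9%, 21.9% and 24.7% of such clusters. The median log2 ratio to ATFB over the members was -0.62, -0.40 and -0.48 in ATAB, ATAH and ATAS, and over all clusters tested it was -0.12, 0.03 and 0.04. The 3 comparisons share the fetal library. Scaling by edgeR TMM factors moved the median of all clusters by 0.18, -0.10 and -0.12 in these comparisons, and then 19 members were lower and 6 higher in ATAB, 22 and 5 in ATAH and 29 and 6 in ATAS. Of all clusters, 3431 were lower and 3907 higher in ATAB with these factors, 3887 and 4313 in ATAH, and 4218 and 4794 in ATAS.

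**Figure D1:**
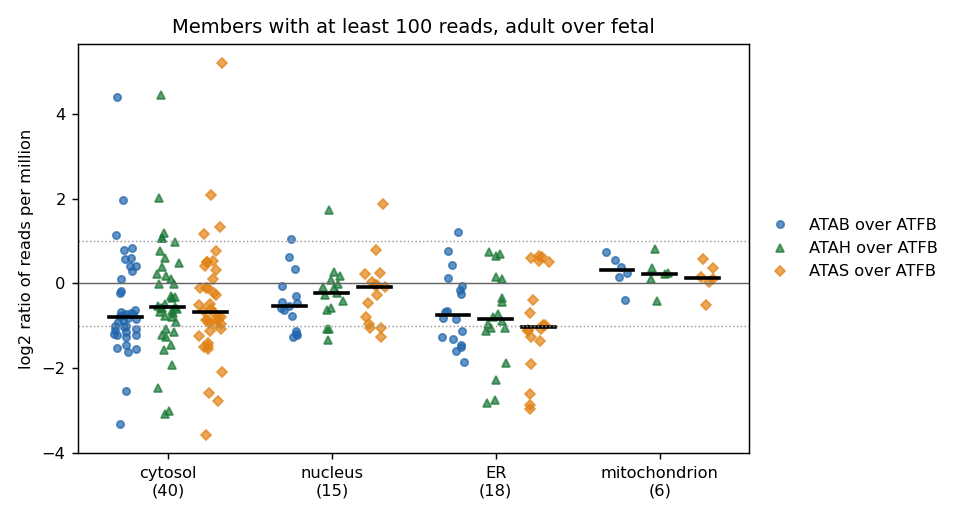
The log2 ratio of each adult library over ATFB (vertical axis) is plotted for members with at least 100 reads by compartment, 1 point per member, with the number of members under each compartment. Black bars are medians and dotted lines mark a log2 ratio of 1 in either direction; the median lies below 0 in the cytosol (-0.79 in ATAB, -0.54 in ATAH, -0.67 in ATAS) ER (-0.74, -0.83, -1.03) and nucleus (-0.52, -0.23, -0.09) and above 0 in the mitochondrion (0.32, 0.23, 0.13), where the ATAS median is 0.0065 with TMM factors and -0.03 with DESeq2 size factors.

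In the HSP70 family of the cytosol, HSPA1A and HSPA2 differed from ATFB in opposite directions in each adult library. HSPA1A, the classic stress-inducible HSP70, measured 1387 RPKM in the fetal library and 139, 173 and 117 in those of the bull, heifer and steer. The fetal library lay far above the 3 adults, which lay near each other. It was 10.01-fold lower in ATAB than in ATFB (log2 ratio -3.32, interval -3.36 to -3.28), 8.03-fold lower in ATAH and 11.8-fold lower in ATAS. HSPA2, which is best known for its high expression in male germ cells, went the other way, with 2.78 RPKM in ATFB and 58.5, 60.1 and 103 in ATAB, ATAH and ATAS. It had 107 reads in ATFB and between 2364 and 4026 in the adults, and its log2 ratio to ATFB was 4.4 in ATAB (4.12 to 4.69), 4.44 in ATAH (4.16 to 4.73) and 5.21 in ATAS (4.93 to 5.50). These opposite values belong to a pair of genes with much the same sequence. Their coding sequences were identical at 80.5% of 1902 aligned bases. The stretch below covers coding bases 4 to 93 of HSPA1A and 7 to 96 of HSPA2, with the 15 bases that differ in capitals.
HSPA1A: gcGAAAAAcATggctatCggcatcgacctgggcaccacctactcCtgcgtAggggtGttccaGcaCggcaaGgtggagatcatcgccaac
HSPA2: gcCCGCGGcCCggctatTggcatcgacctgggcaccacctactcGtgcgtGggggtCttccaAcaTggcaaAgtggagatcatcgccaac
No window of 90 bases of HSPA1A occurred in another sequence of the reference set, and 6.12% of those of HSPA2 did. HSPA1B, a near-identical neighbour of HSPA1A in mammals, was not analysed here, and its reads may be counted with HSPA1A.

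HSPA8, the constitutive HSP70 of the cytosol, measured 587 RPKM in the fetal library and 243, 393 and 338 in those of the bull, heifer and steer. Only the difference of ATAB from ATFB was called (log2 ratio -1.27), and the log2 ratios of ATAH and ATAS were -0.58 and -0.80. HSPA14, an atypical HSP70 that works at the ribosome, measured 34.0 RPKM in ATFB and between 11.4 and 14.4 in the adults, and was called lower in each adult library. DNAJC2, its J-domain partner there, measured 42.1 RPKM in ATFB and 14.6, 20.0 and 14.4 in ATAB, ATAH and ATAS and was also called lower in each. DNAJC2 shared 15.9% of its windows with other sequences. HSPH1, an exchange factor of HSP70, stood out in ATAB, with 6.33 RPKM there and 13.6, 13.4 and 12.5 in ATFB, ATAH and ATAS.

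Both HSP90 genes were highest in ATFB. HSP90AB1, the constitutive form, measured 1013 RPKM in the fetal library and 346, 369 and 356 in those of the bull, heifer and steer, with log2 ratios to ATFB of -1.55, -1.46 and -1.51. HSP90AA1, the inducible form, measured 258, 145, 137 and 136 RPKM, and its log2 ratios of -0.83, -0.92 and -0.92 did not reach the size set for a call. In HSP90AA1, 44.4% of the 90-base windows occurred in another sequence of the reference set, so its reads may be split. A predicted HSP90 alpha-like locus, LOC781339, had 164 reads in ATFB and 86, 20 and 28 in ATAB, ATAH and ATAS and was called lower in each adult library, but in ATAB no longer with TMM factors (log2 ratio -0.84) or DESeq2 size factors (-0.87). It shared 18.3% of its windows with other sequences.

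Among the J-domain members, DNAJB1, the stress-inducible partner of HSPA1A, measured 182 RPKM in the fetal library and 31.4, 48.0 and 42.6 in those of the bull, heifer and steer. Its log2 ratios to ATFB were -2.53, -1.92 and -2.09. DNAJC5, a partner of HSPA8 on secretory vesicles, was low in ATFB at 3.93 RPKM and stood at 15.3, 15.8 and 16.6 RPKM in ATAB, ATAH and ATAS. Its log2 ratios lay between 1.96 and 2.08, each called. DNAJC27, which joins a J domain to a small GTPase fold, was called higher in each adult library but had only 24 reads in ATFB and 64, 102 and 115 in ATAB, ATAH and ATAS. DNAJA1 measured 82.7 RPKM in ATFB and 37.2, 51.7 and 76.3 in ATAB, ATAH and ATAS, so that the steer library lay near the fetal one. Of its windows, 28.2% occurred in other sequences, so its reads may be split. Over the 30 J-domain members the median log2 ratio to ATFB was 0.04, 0.13 and 0.02, near the median of all clusters, with 7, 4 and 5 members called lower and 2, 3 and 3 called higher in ATAB, ATAH and ATAS. The shares called lower were 23.3%, 13.3% and 16.7%, against 13.1%, 9.83% and 10.5% of all clusters, and 9.51%, 13.9% and 15.5% of all clusters were higher.

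The small heat shock proteins differed among themselves. HSPB6, which is abundant in muscle and binds other small heat shock proteins, measured 403 RPKM in the fetal library and 131, 72.8 and 59.2 in those of the bull, heifer and steer. The log2 ratios to ATFB were -1.63, -2.47 and -2.77, and the adult libraries also differed, with ATAS lower than ATAB by a log2 ratio of -1.14. The 6 skeletal muscle genes summed to 3.94 RPKM in ATFB and 3.48, 8.17 and 3.48 in ATAB, ATAH and ATAS. Their part in the level of HSPB6 was not tested. HSPB8, chosen after its values were seen, measured 18.9 RPKM in the fetal library and 33.6, 39.6 and 27.5 in those of the bull, heifer and steer.

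**Figure D2:**
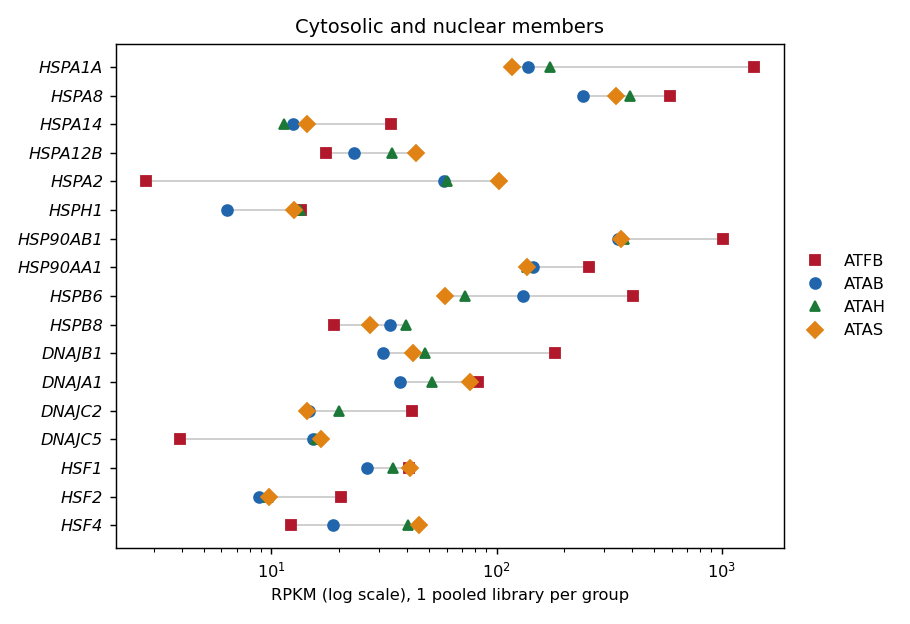
Levels of 17 cytosolic and nuclear members, of which HSPA12B and HSPB8 were picked after their values were seen, are plotted in RPKM on a log scale, 1 point per library and 1 gene per line, with a grey line from the lowest to the highest library. ATFB (squares) is far to the right in HSPA1A (1387 RPKM) and DNAJB1 (182 RPKM) and far to the left in HSPA2 (2.78 RPKM) and DNAJC5 (3.93 RPKM).

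The chaperonin family has 9 members here, the TRiC subunits whose descriptions hold the word chaperonin and the mitochondrial HSPD1. TCP1, also a subunit of TRiC, carries none of the 6 phrases, and it measured 96.1 RPKM in the fetal library and 59.0, 63.7 and 54.8 in those of the bull, heifer and steer. Over the 9 members, without TCP1, the median log2 ratio to ATFB was -0.75, -0.56 and -0.86 in ATAB, ATAH and ATAS. In the same order, 3, 2 and 2 of these members were called lower and 0 higher. With DESeq2 size factors 2, 2 and 5 were lower, and with TMM factors 2, 2 and 3. Over all clusters the shares were 13.1%, 9.83% and 10.5% lower and 9.51%, 13.9% and 15.5% higher. The largest differences among the TRiC subunits in this family, which were picked out after their values were seen, were those of CCT3 and CCT4. CCT3 measured 172 RPKM in ATFB and 74.2, 74.0 and 65.1 in ATAB, ATAH and ATAS, and CCT4 measured 91.6, 39.5, 41.6 and 43.8 RPKM. The 11 cyclophilins had median log2 ratios of -1.01, -0.63 and -0.96, with 6, 4 and 5 called lower (54.5%, 36.4% and 45.5%, against 13.1%, 9.83% and 10.5% of all clusters) and 0 higher (against 9.51%, 13.9% and 15.5%). In ATAB 3 of the 11 were called lower with TMM factors or DESeq2 size factors, against 6 under library totals, and in ATAH and ATAS 4 and 6 were lower under either. PPIH, a cyclophilin of the spliceosome, measured 66.1 RPKM in the fetal library and 27.4, 26.2 and 27.3 in those of the bull, heifer and steer. FKBP1A, the binding protein of FK506 and rapamycin, was the most abundant FKBP, with 435 RPKM in ATFB and 372, 313 and 313 in ATAB, ATAH and ATAS, and was called in no comparison. PPIA measured only 16.6 RPKM in ATFB and 5.95 to 8.17 in the adults, and 75.0% of its windows occurred in other sequences, so its level is uncertain; it is named after its values were seen.

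The 3 heat shock factors were ordered differently over the libraries. HSF1, the main activator of the heat shock response, measured 40.7 RPKM in the fetal library and 26.5, 34.8 and 41.5 in those of the bull, heifer and steer and was called in no comparison. HSF2, which is active in development, measured 20.4 RPKM in ATFB and 8.77, 9.65 and 9.78 in ATAB, ATAH and ATAS, and its log2 ratios were -1.21, -1.08 and -1.06. HSF4, known for its role in the lens, rose in the heifer and steer libraries, with 12.2 RPKM in the fetal library and 18.8, 40.6 and 45.1 in those of the bull, heifer and steer. Against ATFB its log2 ratios were 0.62 in ATAB, which did not pass, and 1.73 and 1.88 in ATAH and ATAS, which did. These are RNA levels, and the activity of the factors was not measured. The 8 immediate-early genes, a list that includes FOS and EGR1 and is known to respond within minutes to many stimuli, summed to 538 RPKM in ATFB and 660, 1898 and 2539 in ATAB, ATAH and ATAS. Their part in the levels of the heat shock genes was not tested.

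In the ER, FKBP10, FKBP7, PDIA5 and PPIC had the largest median differences from ATFB over the adult libraries among members with at least 100 reads. FKBP10, a prolyl isomerase of procollagen, measured 97.7 RPKM in the fetal library and 32.5, 14.6 and 12.5 in those of the bull, heifer and steer. The libraries fell in 3 levels, with the bull between the fetus and the other adults. Its log2 ratios to ATFB were -1.59 (-1.68 to -1.50), -2.74 (-2.87 to -2.62) and -2.97 (-3.10 to -2.83), and ATAH and ATAS were lower than ATAB by log2 ratios of -1.16 and -1.38. FKBP7, another FKBP of the ER, had the same order, with 74.6, 26.3, 10.6 and 10.3 RPKM in ATFB, ATAB, ATAH and ATAS. PDIA5 measured 53.3 RPKM in ATFB and 14.7, 11 and 8.70 in ATAB, ATAH and ATAS. PPIC, a cyclophilin of the secretory pathway, measured 59.0, 23.9, 16.1 and 15.9 RPKM. All 4 genes were called lower in the bull, heifer and steer libraries than in ATFB.

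SERPINH1, the collagen chaperone HSP47, was the most abundant ER member. It measured 555 RPKM in the fetal library and 530, 323 and 232 in those of the bull, heifer and steer, so that the fetal and bull libraries lay close together. The log2 ratio of ATAB to ATFB was -0.07, that of ATAS to ATFB was -1.26 and that of ATAS to ATAB was -1.19, and the last 2 were called. The 4 matrix genes summed to 10405 RPKM in ATFB and 7695, 2254 and 2955 in ATAB, ATAH and ATAS. Among them COL1A1 measured 4167, 3412, 639 and 1035 RPKM and COL3A1 measured 1980, 2903, 766 and 676 RPKM. DCN measured 3916, 1115, 755 and 1155 RPKM and LUM 342, 265, 94.0 and 89.5 RPKM, so that DCN was already lower in the bull library. The part of matrix-forming cells in the levels of SERPINH1, FKBP10 and FKBP7 was not tested.

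HSPA5, the ER member of the HSP70 family, measured 110 RPKM in the fetal library and 69.9, 81.4 and 67.9 in those of the bull, heifer and steer and was called in no comparison. PDIA3 measured 315 RPKM in ATFB and 175, 151 and 159 in ATAB, ATAH and ATAS, and its log2 ratio to ATFB passed in ATAH (-1.06) but not in ATAB (-0.85) or ATAS (-0.99). PDIA4 lay between 60.0 and 79.0 RPKM in all 4 libraries. PDIA6 measured 43.9 RPKM in ATFB and 27.7, 22.6 and 20.6 in ATAB, ATAH and ATAS, was called lower in ATAS and is named after its values were seen. It shared 34.1% of its windows, so its level is uncertain. Over the 5 disulfide isomerases among the members the median log2 ratios were -0.85, -1.06 and -1.09. P4HB and TXNDC5, genes of the ER folding list described below, were added after their values were seen. P4HB had log2 ratios to ATFB of -0.18, -0.64 and -1.08 in ATAB, ATAH and ATAS, and only the last was called. Those of TXNDC5 were 0.02, -0.45 and -0.29, and none was called. DNAJC3, which restrains the kinase PERK and assists HSPA5, measured 62.5 RPKM in the fetal library and 26.3, 29.0 and 24.5 in those of the bull, heifer and steer. DNAJC10, a reductase with a J domain, measured 21.7, 10.01, 10.5 and 9.93 RPKM, and both were called lower in each adult library. The call of DNAJC10 in ATAB was lost with TMM factors (log2 ratio -0.94) and DESeq2 size factors (-0.97), and 12.1% of its windows were shared with other sequences. FKBP9 went the other way, with 33.1 RPKM in ATFB and 51.7 to 56.4 in the adults, was not called and shared 23.2% of its windows. In all, 7, 7 and 9 of 20 ER members were lower and 1, 0 and 0 higher in ATAB, ATAH and ATAS, against 13.1%, 9.83% and 10.5% lower and 9.51%, 13.9% and 15.5% higher over all clusters. FKBP14, the 1 that was higher in ATAB, had 3.66 RPKM in ATFB and 8.50 in ATAB and was named after its values were seen.

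**Figure D3:**
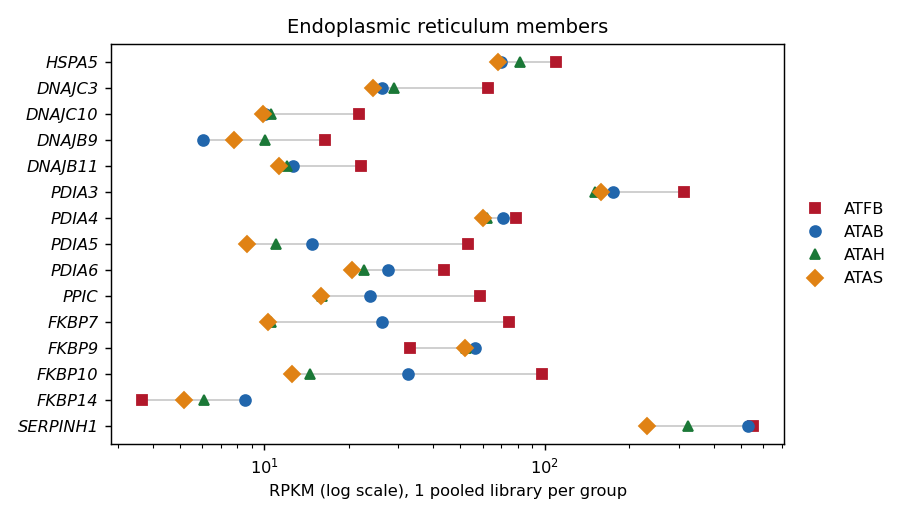
Levels of 15 ER members, of which DNAJB9, DNAJB11, PDIA6 and FKBP14 were picked after their values were seen, are plotted in RPKM on a log scale, 1 point per library and 1 gene per line. In FKBP10 and FKBP7 the bull library (circles, 32.5 and 26.3 RPKM) lies between ATFB and the other adults, while in SERPINH1 it lies beside ATFB (530 and 555 RPKM).

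HSPA9, the HSP70 of the mitochondrial matrix, measured 107 RPKM in ATFB and 127, 138 and 110 in ATAB, ATAH and ATAS. HSPD1, the HSP60 chaperonin of the matrix, measured 57.3, 43.4, 43.3 and 40.1 RPKM. It was the 1 mitochondrial member with its highest value in ATFB, and 28.2% of its windows occurred in other sequences. FKBP8, which sits in the outer membrane and restrains cell death, measured 133, 174, 154 and 142 RPKM. DNAJA3, a J-domain partner of HSPA9, measured 16.4 RPKM in the fetal library and 24.0, 29.1 and 24.5 in those of the bull, heifer and steer, and DNAJC11, of the mitochondrial membranes, measured 20.4, 22.7, 24.3 and 22.7 RPKM. DNAJC30, named to complete the compartment and with 67 to 118 reads per library, measured 2.85, 4.74, 3.08 and 3.67 RPKM. None of the 6 mitochondrial members was called in any of the 6 comparisons. Of all clusters with at least 100 reads in either library, 21.0% were lower and 14.9% higher in ATAB over ATFB, 15.9% and 21.9% in ATAH and 16% and 24.7% in ATAS. Between the adults these shares were 1.73% and 6.05% in ATAH over ATAB, 3.05% and 11.7% in ATAS over ATAB and 2.22% and 2.25% in ATAS over ATAH. The intervals of several of their ratios leave out 0. The log2 ratio of ATAH over ATFB for DNAJA3, for example, was 0.82 (0.68 to 0.97).

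**Figure D4:**
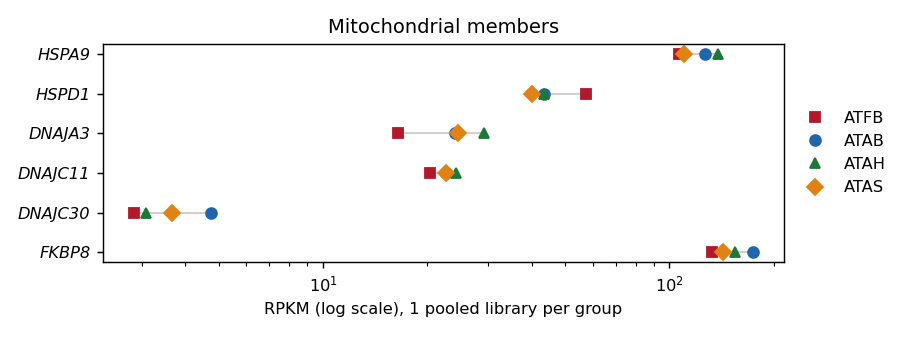
Levels of the 6 mitochondrial members are plotted in RPKM on a log scale, 1 point per library and 1 gene per line. Under library totals, as plotted, ATFB (squares) is the lowest library in each gene but HSPD1, where it is the highest at 57.3 RPKM.

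Of the 5 members placed elsewhere, DNAJC13, of the endosome, measured 8.66 to 10.3 RPKM in all 4 libraries. DNAJB13 and PPIL6 had no read in ATFB, which allows up to 3 reads, and DNAJB13 had 5, 6 and 7 reads in ATAB, ATAH and ATAS. DNAJC22 had 2 reads in ATFB and 10, 2 and 0 in ATAB, ATAH and ATAS. No difference was detectable for these 3 at this depth.

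Among the adults, 2 of 90 members tested were higher (2.22%) and 4 lower (4.44%) in ATAH over ATAB, where 4.14% of all clusters were higher and 1.23% lower. In ATAS over ATAB, 4 of 89 were higher (4.49%) and 6 lower (6.74%), against 6.86% and 1.87%. With TMM factors, which moved the median of all clusters by -0.28 and -0.29 here, 0 were higher and 5 lower in ATAH, and 1 was higher and 9 lower in ATAS. All clusters then split almost evenly, with 693 higher and 728 lower in ATAH and 1127 and 1162 in ATAS. FKBP10, FKBP7 and LOC781339 were lower in both ATAH and ATAS than in ATAB under library totals. HSF4 was higher in both, with log2 ratios of 1.11 and 1.26, but at 0.83 and 0.96 with TMM factors it missed the size set for a call. The other members named by the rule were HSPH1, higher in ATAH (1.09), DNAJA1, higher in ATAS (1.04), PPIL4, a cyclophilin of the nucleus, higher in ATAS (1.04), and HSPBAP1, a binding partner of small heat shock proteins, higher in ATAS (1.31). SERPINH1 and HSPB6 were lower in ATAS, as given above. HSPA1L, with 34 reads in ATAB and 8 in ATAH, and DNAJC12, with 71 in ATAB and 22 in ATAS, were called lower too and are named here after their values were seen. Of the members that were higher, HSPH1, DNAJA1 and PPIL4 missed the size with TMM factors, at 0.81, 0.74 and 0.75. In ATAS over ATAH, 0 of 90 members tested were called, where 1.52% of all clusters were higher and 1.48% lower. A lack of calls does not show equal levels. The median log2 ratio there was -0.09 over the members and 0.02 over all clusters tested.

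The fetal library was also set against the 3 adult libraries as a group by edgeR's quasi-likelihood test, in which the spread comes from the bull, heifer and steer pools, which are different conditions, and the lone fetal library is assumed to vary like them. The adjusted p-values below hold only under that assumption, and without the adult bull library 0 members, and 0 of all clusters, passed. Of 85 members tested, 17 were higher in ATFB and 2 lower at an adjusted p of 0.05, where 6.64% of all 25584 clusters were higher and 8.04% lower. The median log2 fold change of ATFB over the adults was 0.44 over the members and -0.09 over all clusters tested. By compartment, 8 of 43 cytosolic, 3 of 15 nuclear, 6 of 19 ER and 0 of 6 mitochondrial members were higher. HSPA1A had a log2 fold change of 3.28 (edgeR adjusted p = 0.00357), DNAJB1 of 2.16 (0.00897) and PDIA5 of 2.21 (0.00920). HSPB6 stood at 2.20 (0.0177), FKBP10 at 2.30 (0.0226) and HSP90AB1 at 1.5 (0.0202). The 2 lower members were HSPA2, with -4.73 (0.00542), and DNAJC5, with -2.01 (0.0165). HSF2 passed at 1.11 (0.0414), and HSF4 did not at -1.51 (0.0886). The number of members that passed also depended on whether the adult heifer library was kept.

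Chaperone genes whose names hold none of the 6 phrases were read from 2 further lists, and the genes named from them were picked after their values were seen. Of 19 co-chaperones matched to a cluster, 3 were higher and 2 lower in ATAB than in ATFB, 3 and 2 in ATAH, and 2 and 0 in ATAS, and the median log2 ratios were -0.03, -0.02 and 0.01. The shares higher, 15.8%, 15.8% and 10.5%, lay near the 9.51%, 13.9% and 15.5% of all clusters, and 13.1%, 9.83% and 10.5% of all clusters were lower. CLU, a secreted chaperone, measured 527 RPKM in the fetal library and 2001, 3820 and 2669 in those of the bull, heifer and steer. PTGES3, the HSP90 co-chaperone p23, measured 76.8 RPKM in ATFB and 25.4, 37.6 and 38.7 in ATAB, ATAH and ATAS. Of 24 matched genes of the unfolded protein response and ER folding, 1, 5 and 6 were higher and 4, 2 and 5 lower in ATAB, ATAH and ATAS, and the medians of their log2 ratios were -0.24, 0.22 and 0.30. All clusters gave 9.51%, 13.9% and 15.5% higher and 13.1%, 9.83% and 10.5% lower. NUCB2, a calcium-binding protein of the secretory pathway, measured 108 RPKM in the fetal library and 39.0, 21.8 and 19.2 in those of the bull, heifer and steer. ERN1, the sensor kinase IRE1, went up from 15 reads in ATFB to 99, 182 and 232 reads in ATAB, ATAH and ATAS. HSP90B1, the HSP90 of the ER, is named gp96 in its description and was added after its values were seen. It measured 255 RPKM in ATFB and 117, 101 and 96.3 in ATAB, ATAH and ATAS.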

How the data were processed

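Subcutaneous adipose tissue of 5 animals was pooled for each of the 4 libraries, and oligo(dT)-selected RNA was sequenced by the authors on an Illumina instrument. The authors removed adaptors and low-quality reads, aligned with SOAPaligner and deposited, for each UniGene sequence, the count of unique reads, the percent of the sequence covered and the RPKM; CASAVA is named in the submitters' processing notes, and versions are not given in the sources used here. Whether the counting used strand is not given, so antisense reads cannot be told apart.

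Members and gene lists were chosen with earlier results of these data known. Symbols came from the sequence descriptions, with 108 matching headers, of which 17 are not used here because they had no entry in the 4 tables. Compartments were assigned from general knowledge. Members were named by a rule: in each compartment (cytosol and nucleus joined) the 5 with the highest mean RPKM, up to 8 in each direction that were called alike in each adult library against ATFB with at least 100 reads, those called between adults with at least 100 reads, and HSF1 and HSF2. Library totals served as scaling, and a count of 0 was read as 3 reads in ratios. SciPy 1.17.1, edgeR 4.0.16 and DESeq2 1.42.0 were used. The edgeR common coefficient of variation was 0.324. Windows of 90 bases were searched on both strands in the whole sequence set to find shared sequence, and coding sequences were aligned with Biopython 1.88. The scripts were tested on simulated data. Promoter sequences were not analysed here, and protein sequences only as translations of the UniGene coding sequences.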

Additional observations from a re-analysis of the deposited data

How the results depend on the processing

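No paired analysis was possible because each group is 1 pooled library with no replicate number in the labels. In the 6 comparisons of 2 libraries, scaling by TMM, by DESeq2 size factors or by ACTB reads, a minimum of 10 reads and summing of reads by symbol kept the count of members called within 1.5 times of that under library totals. Scaling to ACTB gave 2 members higher and 36 lower in ATAB over ATFB, and 2467 and 5934 of all clusters. An edgeR exact test with an assumed coefficient of variation of 0.4 was also run. Among the members it kept only the calls of HSPA2 in ATAB, ATAH and ATAS over ATFB, and no call between adults. The share of all clusters called by it was not taken. With this assumed spread most calls are lost, so they rest on counting error. In the fit of ATFB against the 3 adults, leaving out 1 adult library gave between 0 and 22 members. These were 0 without ATAB, 11 without ATAH and 22 without ATAS. Of all clusters, 0 passed without ATAB, 3662 without ATAH and 5431 without ATAS. With all 3 adults, 1698 of 25584 clusters were higher in ATFB and 2057 lower. The member counts thus moved along with those of all clusters, and no excess of members is read from them. Of the 76 log2 ratios of named members that were called, 10 missed the call with TMM factors, 9 with DESeq2 size factors and 1, DNAJC27 in ATAB over ATFB, with ACTB scaling. With TMM these were DNAJA1, DNAJC10, HSPH1, LOC781339 and PPIL4 in ATAB over ATFB, HSF4 and HSPH1 in ATAH over ATAB, and DNAJA1, HSF4 and PPIL4 in ATAS over ATAB. Pooling hides the spread between animals, and low counts limit the members under 100 reads.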
